A study of Homo sapiens with 2 samples.

Results

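LOC101927273, LINC00308 and LOC100288798 are 3 long non-coding RNA (lncRNA) genes, away from the HMGA2 locus, that each held at least 5 peaks in a list of RNA regions precipitated with FLAG-tagged USP39. They were chosen by the number of peaks that the list assigns to them, so these numbers are given only as a description. Together they held 23 of the 368 listed peaks (6.25%), and they were 3 of the 161 genes in the list. LOC101927273 held 12 peaks, LINC00308 held 6 and LOC100288798 held 5.

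RNA immunoprecipitation followed by sequencing (RIP-seq) was performed in A2780, an established human ovarian cancer cell line that ectopically expressed FLAG-tagged USP39. One group was the RNA precipitated by anti-FLAG antibody from lysed nuclei after crosslinking with 0.3% formaldehyde, and the other was input RNA of the same cells. Each group was 1 library, so none of the values has an error between replicates. The list gives a position, a region class and an assigned gene for each peak. It holds no read count, fold enrichment or strand. The depth behind a peak is therefore unknown here, and no peak was compared with its input.

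USP39 belongs to the U4/U6.U5 tri-snRNP, the particle of small nuclear RNAs and proteins that joins the spliceosome before the first step of splicing. An intron is recognised by its 5′ splice site, which usually begins with GT, and its 3′ splice site, which usually ends with AG. LncRNAs are transcribed and often spliced like messenger RNAs but have no long reading frame, and their annotation differs between catalogues more than that of coding genes. An antisense lncRNA is transcribed from the strand opposite to a neighbouring or overlapping gene.

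The stretches that the positions below turn on are shown first, read from the forward strand of GRCh37 (hg19), the build of the list. The first set holds annotated exons of GENCODE release 44 that LINC00308 and LOC101927273 peaks covered, with exon bases in capitals and intron or flanking bases in lower case. Exon 3 of LINC00308 with 30 bases on each side lies at chr21:23487247-23487461. The start of the last exon of the lncRNA gene that holds the LOC101927273 peaks lies at chr18:53505420-53505599, and the end of that exon at chr18:53506326-53506505.
LINC00308 exon 3: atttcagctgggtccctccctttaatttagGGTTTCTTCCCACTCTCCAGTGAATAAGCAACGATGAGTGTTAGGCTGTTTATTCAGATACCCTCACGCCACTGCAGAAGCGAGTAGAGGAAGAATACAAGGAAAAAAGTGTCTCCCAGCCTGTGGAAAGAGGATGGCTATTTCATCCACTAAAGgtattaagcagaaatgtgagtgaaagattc
LOC101927273 start of the last exon: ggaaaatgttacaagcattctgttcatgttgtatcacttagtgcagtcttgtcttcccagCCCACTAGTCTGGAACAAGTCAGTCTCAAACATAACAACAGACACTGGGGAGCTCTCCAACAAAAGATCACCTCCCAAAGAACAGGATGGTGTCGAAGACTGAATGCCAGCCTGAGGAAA
LOC101927273 end of the last exon: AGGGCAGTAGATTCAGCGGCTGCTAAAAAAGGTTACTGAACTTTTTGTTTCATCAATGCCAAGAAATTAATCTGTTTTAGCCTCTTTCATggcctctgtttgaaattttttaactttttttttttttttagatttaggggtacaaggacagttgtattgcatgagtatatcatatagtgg

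The next set holds sequence outside the exons shown above. Both 210-bp peaks of LOC101927273, the narrowest of the 23, are given whole, at chr18:53475871-53476080 (peak 506) and chr18:53486161-53486370 (peak 508). The middle 150 bases of the first LOC100288798 peak lie at chr12:46812526-46812675 (peak 112), and those of its last and most GC-rich peak at chr12:47031726-47031875 (peak 116). Peak numbers are those of the list, and no base is in capitals.
LOC101927273 peak 506: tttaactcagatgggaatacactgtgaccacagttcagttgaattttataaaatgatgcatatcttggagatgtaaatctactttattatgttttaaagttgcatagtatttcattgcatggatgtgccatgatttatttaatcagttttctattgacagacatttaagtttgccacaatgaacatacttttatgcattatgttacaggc
LOC101927273 peak 508: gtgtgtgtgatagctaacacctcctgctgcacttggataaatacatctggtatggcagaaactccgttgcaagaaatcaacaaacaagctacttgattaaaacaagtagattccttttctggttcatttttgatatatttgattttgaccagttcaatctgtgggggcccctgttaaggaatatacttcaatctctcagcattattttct
LOC100288798 peak 112: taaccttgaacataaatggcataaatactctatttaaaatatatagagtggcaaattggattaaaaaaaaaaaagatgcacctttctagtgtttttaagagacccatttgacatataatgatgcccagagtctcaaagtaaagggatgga
LOC100288798 peak 116: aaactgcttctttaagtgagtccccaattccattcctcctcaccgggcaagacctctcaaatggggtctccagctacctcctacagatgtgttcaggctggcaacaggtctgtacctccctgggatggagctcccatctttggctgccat

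Current symbols were found for all 3 names by the gene identifier in the list, and the label of lncRNA held for each of them in both RefSeq and GENCODE. LOC101927273 is now LINC01416, LINC00308 keeps its name, and LOC100288798 is now SLC38A4-AS1, named as antisense to SLC38A4. The peaks, however, did not all lie in the gene they were named after. Of the 12 LOC101927273 peaks, 0 overlapped LINC01416 (chr18:53548919-53665450, minus strand), and the nearest peak base was 42179 bp away. Of the 6 LINC00308 peaks, 1 overlapped LINC00308 (chr21:23470935-23488924, plus strand). All 5 LOC100288798 peaks overlapped SLC38A4-AS1 (chr12:46777216-47270567, plus strand). The names LOC101927273 and LINC00308 therefore stand below for the peaks that the list assigns to them. The peaks outside their named gene were the same ones that the list classes as intergenic, so these are not separate results. The share of peaks outside their named gene was not counted for the other genes of the list.

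**Figure D1:**
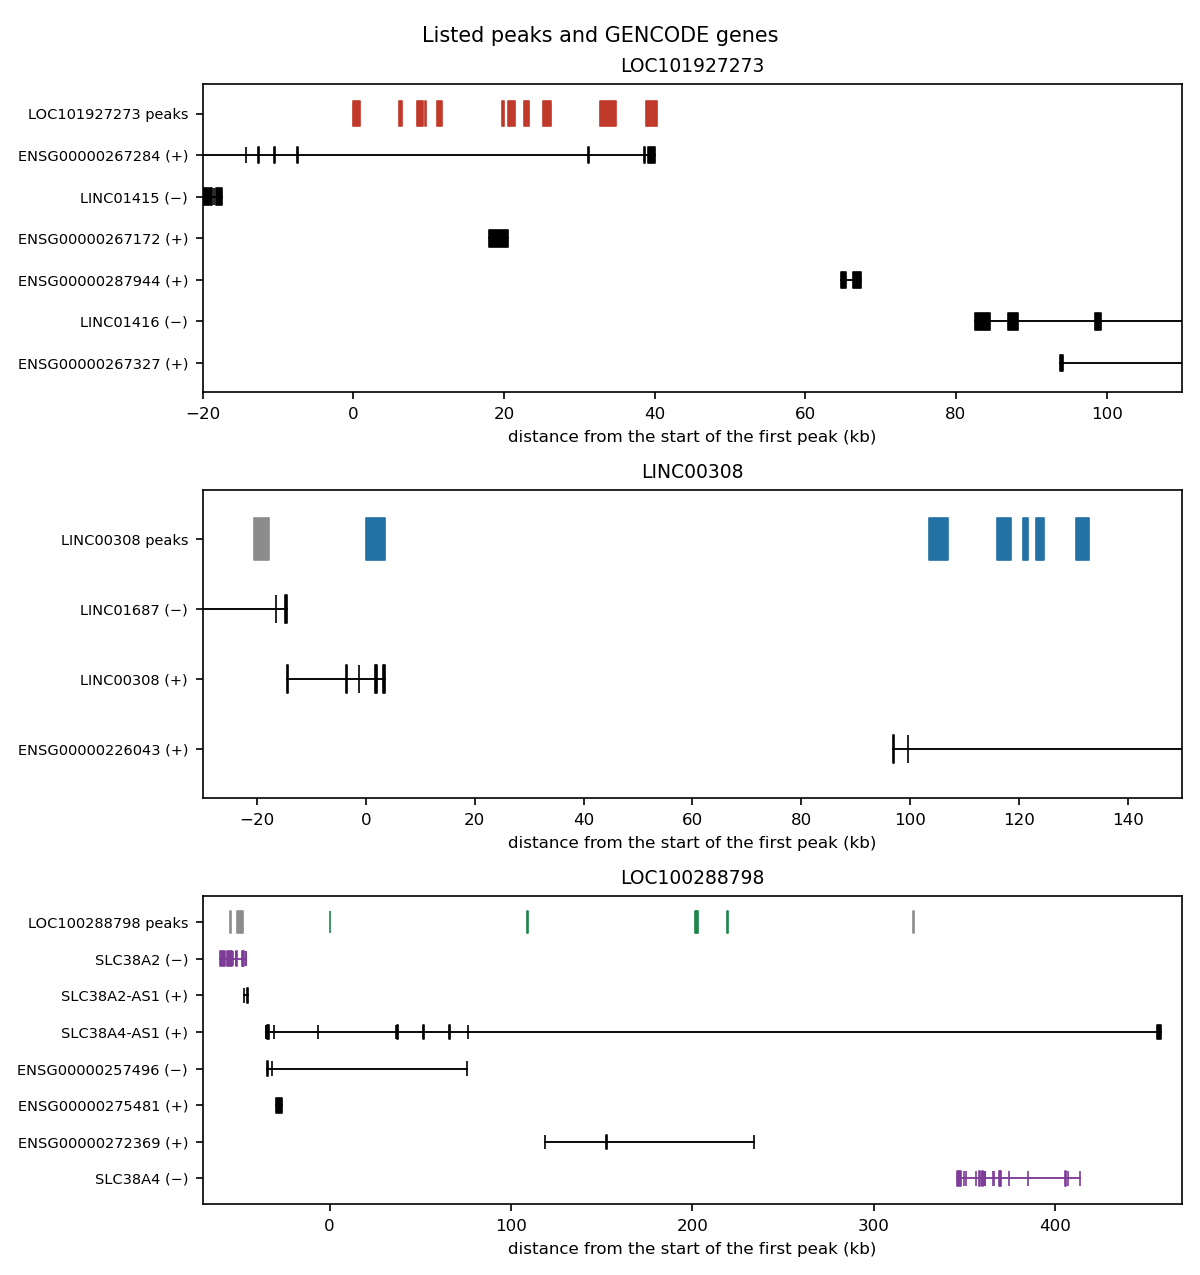
Map of the peaks (coloured bars, upper row of each panel) and of the lncRNA genes (black) and coding genes (purple) of GENCODE around them, with exons as boxes, introns as thin lines and the strand beside each name. The horizontal axis is the distance in kb from the start of the first peak, grey bars are peaks assigned to other genes, features narrower than a drawn line appear as a line, and genes may run past the edge of a panel. The 12 LOC101927273 peaks lie to the left of LINC01416, past its 3′ end on the minus strand, and at the 3′ end of ENSG00000267284. Of the 6 LINC00308 peaks, 5 lie in ENSG00000226043, and the 5 LOC100288798 peaks lie in SLC38A4-AS1.

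The 12 LOC101927273 peaks lay at the 3′ end of 1 annotated transcript. They lay within 40320 bp, at chr18:53466421-53506740, and covered 9030 bp, or 22.4% of this span. The GENCODE lncRNA gene that they overlapped, ENSG00000267284, is transcribed from the plus strand and has no gene symbol. Its start site was 209286 bp before the first peak, and its canonical transcript, which has 9 exons, was the only 1 of its 4 transcripts that reached the peaks. Peaks 503 to 511 (9 peaks, 5670 bp, chr18:53466421-53492670) all lay in intron 6, which is 38485 bp long, and no listed peak touched any earlier part of this gene. Peak 512, the widest of the 12 at 2100 bp (chr18:53499181-53501280), lay in intron 7, which is 7345 bp long. Peak 513 (chr18:53505271-53505900) held 209 bp of intron 8 and 421 bp of exon 9, so the 3′ splice site at 53505480 was inside it. Peak 514 (chr18:53506111-53506740) held the last 305 bp of exon 9 and ran 325 bp past the annotated end of the gene. Exon 9 is 936 bp long, and these peaks together covered 726 bp of it.

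The 6 bases of intron 8 before exon 9 are TCCCAG, which ends with the usual AG, as the printed start of the last exon shows. Peak 513 was the most GC-rich of the 12, with 49.5% GC against 30.5% to 42.6% in the other 11. Peak 508 lay in intron 6 of ENSG00000267284 and also wholly within ENSG00000267172, a lncRNA gene with a single exon on the same strand (chr18:53484398-53486990). By GENCODE, 3 of the 12 peaks thus touched annotated exons (peaks 508, 513 and 514) and 9 lay in intron sequence alone, whereas the list classes all 12 as intergenic. With no strand in the list, RNA from these plus-strand genes and RNA from the opposite strand cannot be told apart.

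LINC00308 peaks fell into 1 peak on the named gene and a separate cluster of 5. Peak 1329 (chr21:23485416-23488900) was 3485 bp wide, was classed as exon by the authors, and covered the 3′ end of the gene up to 24 bp before its annotated end. In the canonical transcript it held 1861 bp of intron 2, all 155 bp of exon 3, all 1223 bp of intron 3 and 246 of the 270 bp of exon 4. A further transcript has 6 exons, and its exons 4, 5 and 6 also lay in the peak. Over both transcripts, 540 bp of this peak were exonic. It held 4 annotated 3′ splice sites and 2 annotated 5′ splice sites, and both 5′ splice sites began with GT (GTGAGA and GTATTA). The sequence of exon 3 printed above comes from this peak.

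The other 5 LINC00308 peaks began 100040 bp after the end of peak 1329 and were classed as intergenic. Peaks 1330 to 1333 and 1335 lay within 29315 bp (chr21:23588941-23618255) and covered 10660 bp, or 36.4% of that span. GENCODE places all 5 in a lncRNA gene without a symbol, ENSG00000226043 (chr21:23582239-23793139, plus strand), and the first of them begins 6702 bp after its start site. All 5 lay in intron 2, which is 207957 bp long in the canonical transcript and 187081 bp in the 2 other transcripts, and held 0 exonic bases. The nearest annotated splice site was 3809 bp from the first of the 5 and 30869 bp from the last. Peak 1330 was 3485 bp wide, peak 1331 2460 bp, peak 1332 1025 bp, peak 1333 1435 bp and peak 1335 2255 bp. Peak 1332 was the most GC-rich of the 6 LINC00308 peaks with 45.2%, against 29.3% to 36.3% in the others. The cluster thus lay near the 5′ end of a long intron, whereas the LOC101927273 peaks ran to the 3′ end of their gene.

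LOC100288798 (SLC38A4-AS1) peaks were few and far apart. The 5 peaks covered 3600 bp, or 1.64%, of a span of 219800 bp (chr12:46812401-47032200), and the first lay 35185 bp from the start site of the gene. All 5 were classed as intron and all 5 lay in intron 2 of the canonical transcript, which is 486844 bp long in a gene of 493352 bp. Peaks 112 and 115 were 400 bp wide, peaks 113 and 114 1000 bp and peak 116 800 bp. The distance was 108200 bp between peaks 112 and 113 and 92000 bp between peaks 113 and 114, but 200 bp between peaks 114 and 115. Peak 112 also lay in the intron of ENSG00000257496, a lncRNA gene on the minus strand. Peaks 114, 115 and 116 also lay in intron 2 of ENSG00000272369, a lncRNA gene on the plus strand. Over all 10 annotated transcripts of SLC38A4-AS1 and the other genes there, these peaks held 0 exonic bases, and the nearest splice site was between 6362 and 31173 bp away. Peak 117 (chr12:47134201-47134400), which the list classes as intergenic and assigns to SLC38A4, also lay in this intron and outside SLC38A4 itself, so 6 listed peaks overlapped SLC38A4-AS1 by position.

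The threshold of 5 peaks divided genes with close numbers. Just inside it were LOC100288798 with 5 peaks and LINC00308 with 6, and just outside it among genes of the ncRNA type were LOC400927 with 4 and, among others, TUG1 and CECR7 with 3 each. The list gives 26 genes the type ncRNA, with 94 peaks, of which the 3 genes held 24.5%. Of these 26 genes, 8 had 5 or more peaks and 12 had 1 peak. The remaining 5 of the 8 were LINC00478 with 19 peaks, LOC100129940 with 7, LOC100507065 with 6, and LOC101927810 and SRRM2 with 5 each. SRRM2, which encodes a protein, carries this type in the list through the transcript assigned to it.

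The list is sorted by position and numbered up to 1443, but holds 368 entries, or 25.5% of these numbers. Between the first and the last peak of each gene, 23 of 24 numbers were listed (95.8%), with 1334 as the exception. The same count was 19 of 21 for LINC00478 (90.5%) and 54 of 61 for the range of HMGA2 (88.5%). Each range begins and ends on a listed peak of a gene with many of them, LINC00478 and HMGA2 included, so a share above that of the whole list is largely fixed by the choice of genes and nothing is read from it. The missing numbers were not analysed here.

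Width differed between the 3 genes. The median was 840 bp over the 23 peaks (630 to 1050, exact order-statistic interval of at least 95%) and 400 bp (400 to 600) over the 345 other peaks. It was 600 bp (400 to 630) over the 178 other intron and intergenic peaks and 615 bp (400 to 820) over the other ncRNA peaks. The median was 700 bp (600 to 1000) over HMGA2 and 1230 bp (820 to 2255) over LINC00478. The interval of the 23 peaks met or overlapped that of each of these sets, but not that of the 345 other peaks. LINC00308 peaks had a median of 2357.5 bp and a range of 1025 to 3485 bp. LOC101927273 peaks had a median of 630 bp and a range of 210 to 2100 bp. LOC100288798 peaks had a median of 800 bp and a range of 400 to 1000 bp. Both 3485-bp peaks of LINC00308 were exceeded by 3 peaks in the whole list, which were assigned to LOC100129940 (5000 bp) and LINC00478 (4100 and 3895 bp).

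Part of this difference ran along chromosomes. Every width was a whole number of bins, with a bin of 200 bp on chromosome 12, 210 bp on chromosome 18 and 205 bp on chromosome 21. The narrowest of the 48 peaks on chromosome 21 was 615 bp, or 3 bins, whereas peaks of 1 bin occurred on each of the 7 other chromosomes in the list, 95 of 205 on chromosome 12 and 11 of 31 on chromosome 18. Within chromosome 21, the LINC00308 median of 2357.5 bp stood beside 1230 bp (1025 to 1640) for the 42 other peaks, and the LINC00308 range lay inside theirs (615 to 4100 bp). Within chromosome 18, 630 bp for LOC101927273 stood beside 420 bp for the 19 other peaks. Within chromosome 12, 800 bp for LOC100288798 stood beside 400 bp for the 200 other peaks. All 3 medians were above those of their chromosomes, but the ranges overlapped, and the difference was not tested.

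**Figure D2:**
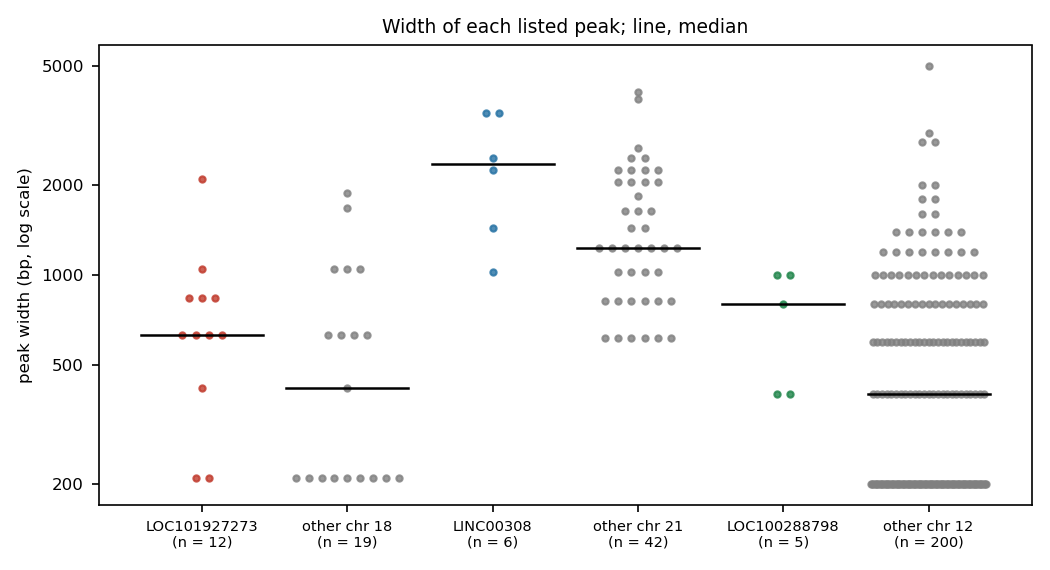
Width of each peak of the 3 genes (coloured) and of the other peaks on the same chromosome (grey), in bp on a log scale, with the number of peaks under each group and the median as a line. LINC00308 peaks lie between 1025 and 3485 bp, and no peak on chromosome 21 is narrower than 615 bp.

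Spacing differed in its median between the genes, but the ranges overlapped and the difference was not tested. Between neighbouring LOC101927273 peaks, the median distance from the end of a peak to the start of the next was 1890 bp over 11 intervals (210 to 7980). It was 5945 bp over 5 intervals in LINC00308 (1435 to 100040), or 4100 bp within the cluster of 5 peaks, and 53900 bp over 4 intervals in LOC100288798 (200 to 108200). Over the 20 intervals together the median was 3122.5 bp (1435 to 7980, exact order-statistic interval of at least 95%), which includes the 1600 bp found over 187 intervals between neighbouring peaks of other genes. In 3 intervals, neighbouring peaks were separated by a single bin, with 2 in LOC101927273 (peaks 505 and 506, peaks 513 and 514) and 1 in LOC100288798 (peaks 114 and 115). Such pairs are divided only by 1 bin that did not enter a peak, so that the number of peaks depends on how neighbours are joined. Joining peaks no more than 10000 bp apart left 7 of the 23.

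Most of the 23 peaks were intergenic by the region class that the authors assigned, and none by the annotation used here. By that class, 17 of 23 peaks were intergenic (73.9%, 95% Wilson interval 53.5 to 87.45%), 5 were intronic (21.7%, 9.66 to 41.9%) and 1 was exonic (4.35%, 0.772 to 20.99%). Over the 345 other peaks, 22 were intergenic (6.38%, 4.25 to 9.47%), 156 intronic (45.2%, 40.05 to 50.5%) and 104 exonic (30.1%, 25.5 to 35.2%). The 3 genes held 17 of the 39 intergenic peaks of the list, or 43.6%. The class also ran along chromosomes. On chromosome 18, 16 of the 19 other peaks were intergenic (84.2%, 62.4 to 94.5%), 15 of them assigned to POTEC, close to the 12 of 12 of LOC101927273 (75.75 to 100%). On chromosome 21, 4 of the 42 other peaks were intergenic (9.52%, 3.77 to 22.1%), beside 5 of 6 for LINC00308 (83.3%, 43.65 to 96.99%). On chromosome 12, 2 of the 200 other peaks were intergenic (1%), beside 0 of 5 for LOC100288798. By overlap with GENCODE genes, 0 of the 23 peaks lay outside every gene, against 15 of the 345 others (4.35%), of which 13 were peaks assigned to POTEC. These intervals cover counting error only and treat peaks as independent, which neighbouring peaks of 1 gene are not.

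Few of the 23 peaks touched an annotated exon or splice site. An exon of any gene was overlapped by at least 1 bp in 4 of 23 peaks (17.4%, 6.98 to 37.1%), and in 217 of the 345 others (62.9%, 57.7 to 67.8%). Among the 178 other peaks that the authors classed as intron or intergenic, the same share was 29.2% (23.0 to 36.3%), which overlaps the interval of the 3 genes. Exons made up 5.51% of the bases of the 23 peaks, 41.1% of the bases of the other peaks and 10.95% of the bases of the other intron and intergenic peaks. By gene, the share was 10.4% in LOC101927273, 3.82% in LINC00308 and 0% in LOC100288798. In the spans outside the peaks it was 8.76%, 1.94% and 1.44%, in the same order, so the surrounding sequence held few exonic bases too. A splice site lay within 100 bp in 2 of 23 peaks (8.70%, 2.42 to 26.8%), which were peaks 513 and 1329, in 127 of the 345 others (36.8%, 31.9 to 42.0%), and in 37 of the 178 (20.8%, 15.5 to 27.3%). In both peaks the sites lay inside the peak. The gap to the whole list was therefore larger than the gap to intron and intergenic peaks, where the intervals overlapped. Among the 42 HMGA2 peaks, 16.7% (8.32 to 30.6%) overlapped an exon and 4.76% (1.32 to 15.8%) had a splice site within 100 bp. Among the 71 other ncRNA peaks these shares were 38.0% (27.6 to 49.7%) and 31.0% (21.4 to 42.5%). All these intervals overlap those of the 23 peaks.

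Other lncRNA genes of the list did not share one pattern. LINC00478 peaks overlapped an exon in 4 of 19 cases (21.1%), a share close to that of the 3 genes. All 6 peaks of LOC100507065, all 4 of LOC400927 and all 3 of CECR7 were classed as intron and held 0 exonic bases. All 3 TUG1 peaks were classed as exon, and 100% of their 4305 bp were exonic. Over the 71 peaks of ncRNA type outside the 3 genes, 49 were intronic (69.0%) and 2 intergenic (2.82%). By the same class, 12 of 12 LOC101927273 peaks and 5 of 6 LINC00308 peaks were intergenic, and 5 of 5 LOC100288798 peaks were intronic.

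The pooled GC content of the 23 peaks was 36.2%, against 42.9% over the other peaks, 39.96% over the 178 other intron and intergenic peaks, 39.1% over the other ncRNA peaks and 36.3% over LINC00478. LINC00308 peaks had the lowest value with 33.4%, followed by LOC101927273 with 39.1% and LOC100288798 with 39.8%, both near the other intron and intergenic peaks. Without LINC00308 the pooled value was 39.3%. Single peaks ranged from 29.3% (peak 1331) to 52.1% (peak 116). The sequence between the peaks differed from them by less than single peaks differed from each other. It held 35.25% GC in LOC101927273, 34.5% in LINC00308 and 38.8% in LOC100288798. Pooled over their bases, the peaks were thus above their surroundings in LOC101927273 and LOC100288798 and below them in LINC00308. In LOC100288798 this rested on peak 116 with 52.1% and peak 115 with 39.75%, while the other 3 peaks, between 34.25% and 37.7%, lay below the surrounding 38.8%. In LOC101927273, peaks 504, 505 and 506 (30.5% to 35.0%) lay below the surrounding 35.25%, and the others lay above it. In LINC00308, peaks 1329 (36.3%) and 1332 (45.2%) lay above the surrounding 34.5%, and the others lay below it.

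Repeated sequence was measured by words of 20 bases that occur 10 or more times in hg19 on either strand. Such words covered 22.95% of the bases of the 23 peaks and 16.1% of the bases of the other peaks, but 21.3% in the 178 other intron and intergenic peaks and 19.9% in the other ncRNA peaks. The share was 57.1% in LOC100288798, 23.4% in LOC101927273 and 13.97% in LINC00308. In the spans outside the peaks it was 32.3%, 21.8% and 21.3%, in the same order. LOC100288798 peaks thus held more repeated sequence than the span around them, and LINC00308 peaks less. The pooled values hide a wide spread between peaks. At least 95% of the bases were repeated in 3 of 23 peaks (13.04%, 4.54 to 32.1%), namely peaks 503, 114 and 115, against 13 of 345 others (3.77%, 2.215 to 6.34%). All 13 were among the 178 other intron and intergenic peaks, of which they made up 7.30% (4.32 to 12.1%), an interval that overlaps that of the 23 peaks. Within LOC100288798 the share was 54.0% in peak 112, 19.2% in peak 113 and 31.5% in peak 116. Within LINC00308 it was highest in peak 1333 with 37.9%. No repeated word occurred in 3 of the 23 (13.04%, 4.54 to 32.1%), namely peaks 506, 508 and 513. The same was true of 191 of the 345 others (55.4%, 50.1 to 60.5%) and 75 of the 178 (42.1%, 35.1 to 49.5%). Among the other ncRNA peaks it was 24 (33.8%, 23.9 to 45.4%), an interval that overlaps that of the 23. A narrower peak holds fewer words, and the 345 others had a median width of 400 bp, beside 840 bp for the 23. The part of width in these shares was not tested.

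**Figure D3:**
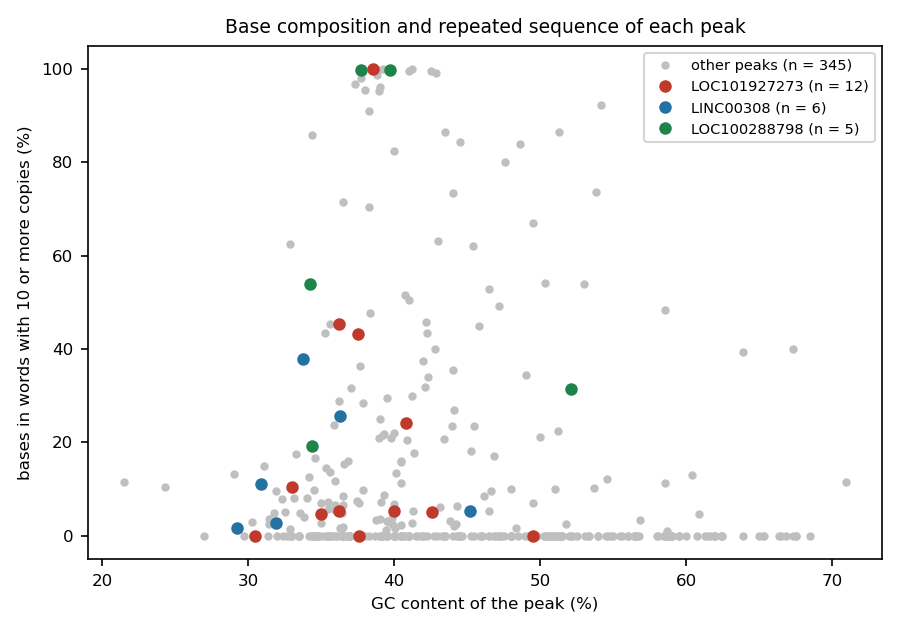
GC content (horizontal axis, in percent of bases) and share of bases in words with 10 or more copies in hg19 (vertical axis, in percent) of each peak, with the 3 genes in colour and the 345 other peaks in grey. Peaks 503, 114 and 115 lie at the top of the plot, between 37.7% and 39.75% GC, and the LINC00308 peaks lie between 1.63% and 37.9% on the vertical axis.

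Copies of whole peaks were found for LOC100288798 alone among the 3 genes. A copy was an alignment elsewhere in hg19 of 95% identity or more that spans at least 80% of the peak. Peak 114 had 2, one on chromosome 12 with 95.5% identity and one on chromosome 3 with 95.4%. The copy on chromosome 12 lay in intron 2 of SLC38A4-AS1 too, in the opposite orientation. Peak 115 had 2 copies with 96.25% identity each, on chromosomes 5 and 18. These were 2 of the 23 peaks (8.70%), beside 28 of the 345 others (8.12%), of which 11 were assigned to POTEC. At 90% identity, peak 503 of LOC101927273 also had copies, 7 in number, and its best reached 93.8%. No LINC00308 peak had a copy at either identity. The alignment keeps a limited number of hits for repeated sequence, so the numbers of copies are lower limits, and the family of the repeats was not analysed here. How reads that align to several places were treated is not given in the sources used here. How many reads of peaks 114 and 115 would align equally well to a copy was not measured.

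The word GTAAGT, which resembles the start of a strong 5′ splice site, was counted together with its reverse complement ACTTAC. The 23 peaks held 11, or 0.411 per kb, beside 0.329 per kb over the other peaks and 0.396 per kb over the other intron and intergenic peaks. LINC00308 peaks held 7 in 3 peaks, all as ACTTAC on the forward strand. LOC101927273 peaks held 4 in 2 peaks, of which 3 were in peak 512, all as GTAAGT on the forward strand. LOC100288798 peaks held 0. In the central 200 bp, 1 of the 23 peaks had either word (4.35%), and 21 of all 368 peaks did (5.71%). Over the whole spans, peaks included, 10.95% of consecutive 200-bp windows held either word in LOC101927273, 9.94% in LINC00308 and 6.55% in LOC100288798. The single central match was in peak 1329, shown here at chr21:23487101-23487166 with the word in capitals.
LINC00308 peak 1329: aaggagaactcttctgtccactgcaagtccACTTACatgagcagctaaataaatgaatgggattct
The word is on the strand opposite to that of LINC00308, and it is not one of the annotated splice sites of the peak.

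The coding genes nearest to the peaks were at very different distances. The LOC101927273 peaks lay 134403 bp from TCF4, which encodes a basic helix-loop-helix transcription factor, and 757700 bp from TXNL1, which encodes a thioredoxin-like protein. ENSG00000267284 begins inside TCF4 on the opposite strand, so that their spans share 74884 bp, but the peaks lay outside this overlap. TCF4 had 1 listed peak (chr18:52896061-52896270), on an exon and a splice site and 570151 bp from the nearest LOC101927273 peak, and TXNL1 had 0. The LINC00308 peaks lay 569766 bp from NCAM2, a neural cell adhesion molecule gene, and 3339713 bp from MRPL39, which encodes a protein of the mitochondrial ribosome, and neither had a listed peak. The start sites of LINC00308 and of the lncRNA gene LINC01687 on the opposite strand are 98 bp apart. LINC01687, listed as LOC101927843, had 1 peak of 2665 bp in its intron 2 (chr21:23464916-23467580), which was 17836 bp from peak 1329.

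LOC100288798 lay in a group of amino acid transporter genes, of which SLC38A1 and SLC38A2 also held peaks and SLC38A4 held 0 by position. SLC38A1, SLC38A2 and SLC38A4 encode sodium-coupled neutral amino acid transporters and are transcribed from the minus strand, opposite to SLC38A4-AS1. SLC38A2 lay 45845 bp from the first LOC100288798 peak, and SLC38A4 lay 126344 bp from the last one. The list held 5 peaks for SLC38A1 and 3 for SLC38A2, all within these genes. Exonic bases were present in 3 of the SLC38A1 peaks (98, 101 and 104) and 2 of the SLC38A2 peaks (107 and 111), and 4 of these 5 peaks, all but peak 98, contained a splice site. The 5 peaks of SLC38A4-AS1 contained neither. The further genes with peaks within 1 Mb were ARID2, a chromatin remodelling subunit gene, with 1 peak and SCAF11, which encodes a splicing-associated factor, with 3, all 4 of them exonic.

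Of the 11 SLC38 family genes, 6 lie on chromosomes that have listed peaks, and 3 were named in the list. By position, peaks overlapped 2 of the 11, SLC38A1 and SLC38A2, while they overlapped 0.778% of all annotated coding genes and 2.06% of those on chromosomes with listed peaks. The family was listed because of its place beside SLC38A4-AS1, so nothing is read from this difference. SLC38A7, SLC38A8 and SLC38A10 lie on such chromosomes and had 0 peaks. Of 9 well-studied lncRNAs, MALAT1, NEAT1, NORAD, KCNQ1OT1, MEG3 and SNHG1 lie on chromosomes that have no listed peak at all. TUG1, GAS5 and HOTAIR lie on chromosomes that do, and of these TUG1 had 3 peaks and the others 0. Of all annotated lncRNA genes on the chromosomes with listed peaks, 0.567% overlapped one. The U4 small nuclear RNA genes RNU4-1 and RNU4-2 on chromosome 12 had 0, and RNU5A-1 and RNU6-1 lie on a chromosome with no listed peak. The list holds peaks on 8 chromosomes, so a gene without a peak says little about its RNA outside them.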

How the data were processed

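RIP-seq was performed in A2780 cells with FLAG-tagged USP39, with 1 precipitated and 1 input library. The authors trimmed the reads, removed rRNA sequence, aligned to hg19 with TopHat2 2.0.13 (version from the submitters' processing notes), and identified peaks with RIPSeeker at an eFDR below 0.05. The deposited list gives positions counted from 1, with no score, count or other value per peak, so depth is unknown and no test was made.

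The peaks of 3 genes, chosen with earlier results of these data known, as were the gene lists, were set beside the 345 other peaks. Genes, exons and splice sites came from GENCODE release 44 on GRCh37, and names from RefSeq (3 of 3 matched). Named genes were the 3 members, the nearest coding gene on each side, list genes within 1 Mb, the other genes of ncRNA type for comparison, the SLC38 family, known lncRNAs and tri-snRNP RNAs. SRRM2, LOC400927, CECR7 and POTEC, and genes overlapped by position, were named after their values were seen. Sequences printed are exon stretches within peaks, or the narrowest peaks, with 3 exceptions. The middles of peaks 112 and 116 and the word in peak 1329 were chosen after their values were seen. The genome used is not marked for repeats, so 20-base words were counted with numpy 2.4.6 and numba 0.67.0. Copies were found with minimap2 2.31. Wilson intervals used scipy 1.17.1. Word counting and interval functions were tested on simulated data. Alternatives covered joining, region class, overlap rule, window, averaging, copy number and leaving out a gene. Some items are not reported here.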

Additional observations from a re-analysis of the deposited data

How the results depend on the processing

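Of 30 alternatives to 9 reported values, 18 moved a value by less than its 95% interval, or a count by no more than 1.5 times, and 12 moved it further. For repeated share and GC content, the interval treats the bases of the peaks as independent, which neighbouring bases are not. It is therefore too narrow, and a move beyond it says little. The number of peaks fell from 23 to 7 when peaks within 10000 bp were joined. The intergenic share of 73.9% became 0% by overlap with GENCODE, 45.5% without LOC101927273 and 94.4% without LOC100288798. Exon overlap of 17.4% of peaks became 5.51% when counted in bases. It was 8.70% with at least 50% of the peak in exons and 13.04% by midpoint, and splice site proximity fell from 8.70% to 4.35% by midpoint, all inside the wide intervals of few peaks. The median width of 840 bp became 1260 bp with peaks within 1000 bp joined, beside 607.5 bp for the other peaks, and in bins it was 4, beside 2 for the other peaks. The median distance of 3122.5 bp (1435 to 7980) became 9020 bp without LOC101927273, 1890 bp without LINC00308, 2072.5 bp without LOC100288798 and 5402.5 bp from start to start, the last 3 inside that interval and 1890 and 2072.5 bp nearer to the 1600 bp of other genes. The repeated share of 22.95% (22.45 to 23.45% over bases) became 10.99% as a median over peaks, 34.6% for words with 3 or more copies and 17.3% for 50 or more, beside 0%, 28.0% and 12.2% for the other peaks. GC content of 36.2% (35.6 to 36.8% over bases) became 34.7% without LOC101927273 and 39.3% without LINC00308. Each of these changes follows from the rule or gene that was changed, and further causes were not tested. Exons of canonical transcripts alone (17.4%) and copies at 90% identity (3 peaks) were added after seeing the data. Another annotation of hg19 was not used here, so that alternative was not run. No paired analysis was possible because both groups hold a single library. Depth is unknown here, and how it limits these values was not measured.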

Other observations

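Repeated sequence varied widely between other genes of ncRNA type. The 6 peaks of LOC100507065 on chromosome 12, of which 1 had none, together held 90.5% of their bases in words with 10 or more copies, against 57.1% for LOC100288798, and 2 of the 6 had a near-identical copy. LOC400927 had such a copy for 3 of its 4 peaks, while its share of repeated words was 28.0%. TUG1, whose 3 peaks were all exonic, had 0.790%.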
